A study of Mus musculus with 15 samples.

Results

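Macrophages engineered to carry a chimeric antigen receptor (CAR) were compared, gene by gene, with macrophages grown from primary mouse bone marrow (bone marrow-derived macrophages, BMDM). The 6 libraries used, 3 labelled CAR and 3 labelled BMDM, were picked by their sample titles from a series of 15 bulk RNA-seq libraries in 5 groups of 3. All 15 were labelled as coming from mouse bone marrow and as primary cells. BMDM had the genotype WT and were untreated, whereas the CAR macrophages had the genotype CAR expression and the treatment CAR treated. The other groups were macrophages of the genotype Control-CAR expression and the treatment Control-CAR treated (called control-CAR macrophages here), WT untreated macrophages titled Hoxb8 macrophages, and WT untreated progenitor cells. The series title places the CAR macrophages in work on therapy of colorectal cancer and traces them to myeloid progenitors. The labels do not give the strain, sex and age of the mice, the antigen and signalling parts of the receptor, and the culture times and factors. They do not say whether a group's 3 libraries are separate cultures either, so p-values measure the spread between libraries that may be technical repeats.

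BMDM are the standard primary macrophage of the mouse: marrow cells are grown in macrophage colony-stimulating factor, whose receptor Csf1r drives survival and differentiation. Macrophages can also be grown from progenitors that are kept dividing by the transcription factor Hoxb8, commonly supplied as a fusion to the hormone-binding part of the oestrogen receptor, and that mature once Hoxb8 activity is withdrawn. A CAR macrophage carries a synthetic receptor that joins an antigen-binding domain to an intracellular signalling domain, and is meant to engulf cells that carry the antigen. Interferons change the state of any of these cells through STAT and IRF factors, which induce GTPases that attack intracellular microbes and the machinery that loads peptides on MHC class I.

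The libraries held 17779803 to 18498158 estimated counts in CAR macrophages and 18752383 to 19221685 in BMDM. In these CAR and BMDM libraries 3 counts correspond to 0.156 to 0.169 CPM (counts scaled to the library total). Genes were tested if they reached 1 FPKM (the authors' level per transcript length and library total) in at least 3 of the 15 libraries, which 11793 genes did. Of these, 9073 differed between CAR macrophages and BMDM at an adjusted p under 0.05 (edgeR's quasi-likelihood test, Benjamini-Hochberg over all tested genes), which is 76.9%. The 4618 genes that were higher in CAR macrophages made up 39.2% and the 4455 that were lower 37.8%. Scaling libraries to their totals instead, which moved the median gene up by 0.18, gave 5800 higher and 3422 lower, and the authors' FPKM and TPM scales gave 5875 and 3372, and 6425 and 3017. Changes of at least 2-fold were found for 3192 genes (27.1%), and the FPKM values of 3 and 3 libraries did not overlap for 9445 genes (80.1%). The median change of all tested genes was 0.02 on the log2 scale, with a median SE of 0.09. With so many genes called, the counts of gene groups below are read against these shares. BMDM replicates varied more than CAR replicates: the median SD of log2 CPM was 0.121 against 0.058, and BMDM replicate 1 stood farthest from the others, but without it 8990 genes were called. Against control-CAR macrophages, used below for single genes, 9280 genes (78.7%) were called. For 3267 tested genes the change was under 0.25 in size. All adjusted p below come from this model, log2 changes are its estimates of CAR macrophages minus BMDM with their SE, and levels are FPKM in replicates 1, 2 and 3. For the genes named below the 3 CAR and 3 BMDM values did not overlap unless stated, and the comparisons with control-CAR macrophages use the same CAR libraries as those with BMDM. FPKM ratios ran 0.18 higher than the model on the log2 scale in the median, because FPKM are scaled to each library's total and the model to the trimmed mean of most genes.

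**Figure D1:**
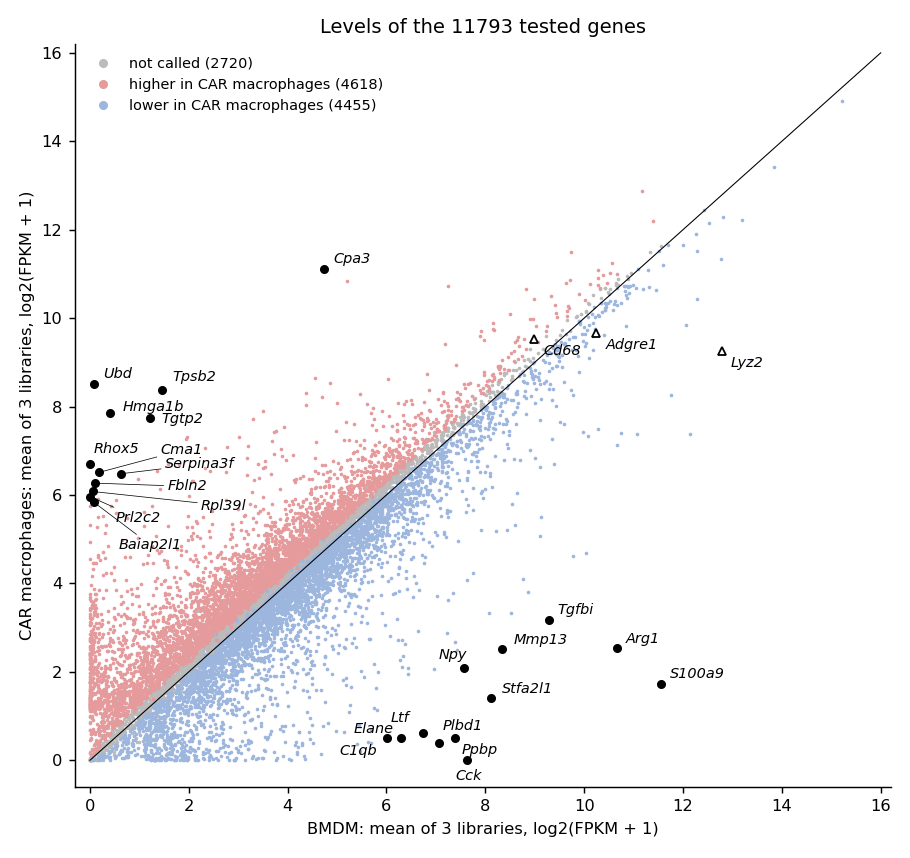
Mean level of each tested gene in BMDM (x axis) and CAR macrophages (y axis), each the mean of 3 libraries on the log2(FPKM + 1) scale, with the line of equal levels. Black points are the 12 largest rises and the 12 largest falls, which lie far from the line near the left and lower edges, whereas 3 macrophage genes (open triangles) are high in both groups.

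The genes that separated the groups most were of several kinds. The 12 largest rises held the interferon-induced genes Ubd and Tgtp2, the mast cell protease genes Tpsb2, Cpa3 and Cma1, and genes of the germ line, the placenta, chromatin and the extracellular matrix. Ubd (chromosome 17, 37193892 to 37196101) encodes a ubiquitin-like protein that is induced by interferon and tags proteins for the proteasome. It was at 356, 367 and 369 FPKM in the 3 CAR libraries and at 0.08, 0.09 and 0 in BMDM. Over each group this is 12452 counts against 2, a ratio of 6495 with a 95% interval of 1798 to 53637 for counting error. The X-linked homeobox gene Rhox5 stood at 102, 102 and 103 FPKM in CAR macrophages with no count in BMDM, which makes it at least 357-fold higher against a floor of 3 counts per library. It was listed at 0 in control-CAR macrophages too. Prl2c2, a placental hormone of the prolactin family with near-identical copies, was likewise at 59.6, 62.3 and 62.1 FPKM with no count in BMDM, at least 208-fold higher. Fbln2, a fibulin of the extracellular matrix, reached 76.5, 76.3 and 75.3 FPKM against 0.09, 0.07 and 0.06. Hmga1b, a chromatin protein gene whose reads can be shared with its parent Hmga1, had 227, 232 and 229 FPKM against 0.53, 0.24 and 0.2. The remaining ones outside the groups described below were Serpina3f, Rpl39l and Baiap2l1, at means of 88.3, 66.6 and 56.3 FPKM in CAR macrophages and under 1 FPKM in BMDM. Rpl39l had 1754 counts against 1, a ratio of 1830 with a 95% counting interval of 328 to 72313. The largest rises were picked among genes without overlap, so its absence in these 8 genes is no further result. Each was also higher in CAR than in control-CAR macrophages.

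The 12 largest falls were led by S100a9 and Arg1, which are among the most abundant transcripts of BMDM. S100a9 (chromosome 3, 90692630 to 90695721), a subunit of the antimicrobial calcium-binding protein calprotectin, fell from 1629.7, 3493 and 3842 FPKM in BMDM to 1.79, 2.28 and 2.91 in CAR macrophages (log2 change -10.54, SE 0.39, adjusted p = 4.75e-13). The arginine-degrading enzyme Arg1 (chromosome 10, 24915207 to 24927470) fell from 1937, 1516 and 1419 to 4.18, 4.92 and 5.33 (log2 change -8.59, SE 0.21, adjusted p = 2.01e-15). The 12 largest falls were also picked among called genes without overlap, so its absence in them is no further result. Cck, which encodes a peptide hormone, was at 184, 197 and 208 FPKM in BMDM and had no count in CAR macrophages, so it was at least 453-fold lower. Its level in control-CAR macrophages was listed at 0 as well. Tgfbi, a secreted adhesion protein of macrophages, was at 667, 593 and 599.9 FPKM in BMDM, at 8.01, 8.08 and 8.1 in CAR macrophages and at 1.63, 1.89 and 1.61 in control-CAR macrophages. Npy, the neuropeptide Y gene, stood at 195, 183 and 189 in BMDM against 3.24, 4.25 and 2.18, and Plbd1, a phospholipase of myeloid granules, at 137, 133 and 129 against 0.34, 0.34 and 0.26. Both were listed at 0 in all 3 control-CAR libraries. The falls split by the level in control-CAR macrophages. Cck, Npy, Plbd1, Elane, C1qb, Tgfbi, Ppbp and Ltf were far below BMDM in control-CAR macrophages too, with means of 0, 0, 0, 0.19, 0.26, 1.71, 1.51 and 5.73 FPKM. Arg1, Mmp13, Stfa2l1 and S100a9 had control-CAR means of 1499, 328, 421 and 406 FPKM, and each was lower in CAR than in control-CAR macrophages, by log2 changes of -8.58, -6.42, -8.19 and -7.70 (largest adjusted p 4.26e-11). Stfa2l1 belongs to a cluster of near-identical stefin genes, so its own level is uncertain.

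Both groups carried the genes that define macrophages, but most of these were lower in CAR macrophages. Of the 19 tested members of a macrophage identity list, 14 fell and 3 rose, beside 37.8% and 39.2% of all tested genes. Their median log2 change was -2.06, against 0.02 over all tested genes. The summed level of the list was 6686 to 6877 FPKM in CAR libraries and 14770 to 16228 in BMDM. Cd163 and Timd4, markers of resident tissue macrophages, were at 0 in all 3 CAR libraries. Both were too low over all groups to be tested, so they are not among the falls. In bulk RNA, fewer cells of a type and less RNA per cell cannot be told apart. The F4/80 gene Adgre1 stayed among the abundant transcripts, at 802, 809.7 and 822 FPKM against 1429.7, 1152 and 1058 in BMDM, and fell by 0.78 on the log2 scale (SE 0.10, adjusted p = 8.52e-07). The lysosomal membrane protein gene Cd68 rose slightly, from 486, 525 and 510.02 to 718, 729 and 767 FPKM (log2 change 0.35, SE 0.11, adjusted p = 0.00647). Csf1r, the receptor for macrophage colony-stimulating factor, was at 109, 108 and 110.01 FPKM against 461, 411 and 378 (log2 change -2.12, SE 0.08, adjusted p = 3.16e-14). Itgam, which encodes CD11b, the alpha chain of the complement receptor of myeloid cells, fell by much the same amount, from 813, 726 and 651 to 202, 199 and 198 (log2 change -2.06, SE 0.08, adjusted p = 7.35e-14). Lysozyme, Lyz2, one of the most abundant BMDM transcripts, fell from 7350.2, 6798 and 7066 FPKM to 609, 619 and 608 (log2 change -3.73, SE 0.07, adjusted p = 8.98e-18).

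The larger falls were in receptors of mature and resident macrophages. Marco, a scavenger receptor for bacteria, fell from 504, 448 and 438 FPKM to 13.9, 12.5 and 12.6 (log2 change -5.34, SE 0.17, adjusted p = 8.96e-14). Mrc1, the mannose receptor CD206, was at 0.35, 0.27 and 0.29 FPKM in CAR macrophages and at 7.25, 4.56 and 4.7 in BMDM (log2 change -4.36, SE 0.22, adjusted p = 2.39e-12). The 3 CAR values lay below 1 FPKM for Mrc1, as they did for the sialic acid receptor Siglec1, at 0.41, 0.4 and 0.38 against 7.08, 6.16 and 5.08. Against control-CAR macrophages these macrophage genes did not all behave alike. Marco, Csf1r, Itgam and Lyz2 were lower in CAR macrophages there too, with control-CAR means of 325, 303, 348 and 5027 FPKM (largest adjusted p 2.23e-10). Mrc1, in contrast, averaged 0.307 FPKM in control-CAR macrophages, and its difference from CAR macrophages did not pass the test (log2 change -0.32, SE 0.32, adjusted p = 0.37).

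**Figure D2:**
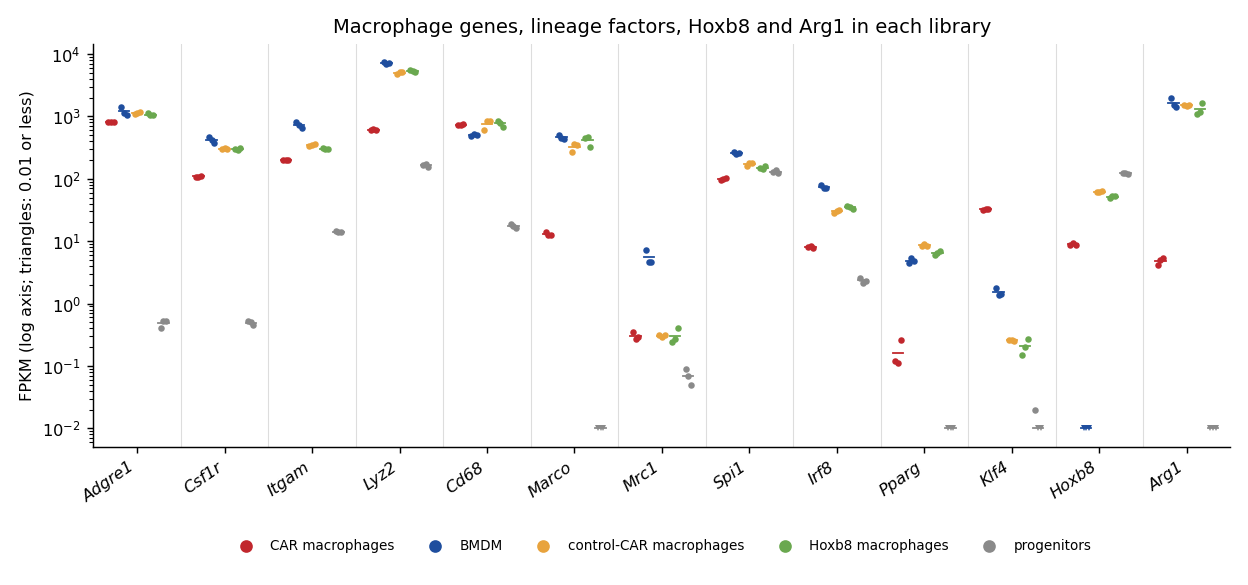
FPKM of macrophage genes, lineage factors, Hoxb8 and Arg1 in each of the 15 libraries (log axis), with a bar at the mean of each group of 3. CAR macrophages lie below BMDM for most of these genes, far below for Marco, Pparg and Arg1, and above BMDM for Cd68, Klf4 and Hoxb8.

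Transcription factors of the macrophage lineage fell with few exceptions. Of 18 tested, 15 fell and 2 rose, with a median log2 change of -1.11. Spi1, which encodes PU.1, the factor that opens macrophage enhancers, was at 96.97, 101 and 103 FPKM against 272, 254 and 259 (log2 change -1.57, SE 0.07, adjusted p = 3.49e-13). Cebpa, a factor of granulocyte and monocyte progenitors, fell from 15.6, 18.9 and 19.4 to 6.71, 6.24 and 7.09 (log2 change -1.61, SE 0.07, adjusted p = 7.41e-13). Irf8, which directs monocyte and dendritic cell development, fell further, from 78.5, 70.9 and 70.4 to 8.17, 8.45 and 7.91 (log2 change -3.35, SE 0.09, adjusted p = 2.31e-16). For Pparg, which drives alveolar macrophage and lipid programmes, the CAR values were near 0, at 0.12, 0.11 and 0.26 FPKM against 4.4, 5.39 and 4.89. Klf4, a factor of monocyte differentiation, was 1 of the exceptions and rose from 1.75, 1.37 and 1.44 FPKM to 31.9, 33.2 and 32.5 (log2 change 4.23, SE 0.10, adjusted p = 7.29e-17). Klf4 was also far above its control-CAR mean of 0.257 FPKM, whereas the control-CAR libraries were at 8.26, 9.16 and 8.5 for Pparg, above every BMDM library.

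Hoxb8 (chromosome 11, 96279401 to 96285325) was looked at in every group, since 1 group is titled by it. No BMDM library had a Hoxb8 count, whereas CAR libraries were at 8.65, 9.38 and 8.54 FPKM, at least 108-fold higher. Control-CAR macrophages averaged 61.9 FPKM, Hoxb8 macrophages 51.2 and progenitor cells 122, so CAR macrophages had the lowest level of the 4 groups in which it was detected (CAR minus control-CAR log2 change -3.11, SE 0.06, adjusted p = 8.74e-17). The table does not tell a transgene from the endogenous gene. Esr1 (chromosome 10, 4611989 to 5005633), the oestrogen receptor gene, was at 17.4, 17.6 and 16.3 FPKM in CAR macrophages and at 3.85, 4.76 and 5.74 in BMDM, and control-CAR libraries were far above both at 158, 140.2 and 147. Its estimated counts were 658, 676 and 648 against 290, 401 and 429, and the model's log2 change was 0.71 (SE 0.09, adjusted p = 7.17e-07). The ratio of its FPKM means was larger, 1.84 on the log2 scale. The difference of 1.13 between the 2 estimates compares with a median of 0.18 over 9174 genes, and 8 genes lay more than 0.5 from that median. FPKM divide by an effective length that the counts do not use, and the cause of the difference was not tested.

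Genes of mast cells and basophils rose as a group. Of 14 tested, 12 rose and 0 fell (1 without BMDM replicate 1), with a median log2 change of 2.86. Their summed level was 479 to 553 FPKM in BMDM, 472 to 507 in control-CAR macrophages and 1759 to 1883 in progenitor cells. In CAR macrophages it was 4031 to 4273. Cpa3, the carboxypeptidase of mast cell granules, made up most of that sum, at 2149, 2179.9 and 2334 FPKM against 22.6, 24.1 and 30.3 (log2 change 6.28, SE 0.14, adjusted p = 5.57e-17). Tpsb2, a tryptase that shares reads with its neighbour, was at 324, 325 and 339.5 against 1.36, 1.6 and 2.24 (log2 change 7.37, SE 0.22, adjusted p = 2.3e-14). The chymase Cma1 was at 87.5, 89.2 and 93.9 against 0.07, 0.14 and 0.2 (log2 change 9.12, SE 0.18, adjusted p = 6.06e-15). Fcer1a, the alpha chain of the high-affinity IgE receptor and a defining surface marker of both cell types, rose from 4.12, 3.38 and 4.49 to 97.3, 94.9 and 99.8 (log2 change 4.40, SE 0.11, adjusted p = 4.83e-15). The 2 genes not called were Kit, the stem cell factor receptor that mast cells keep, and Prss34, a basophil protease. Kit was at 5, 4.61 and 4.53 FPKM against 2.85, 4.07 and 4.27 (log2 change 0.16, SE 0.11, adjusted p = 0.188), and passed the test as higher with libraries scaled to their totals (log2 change 0.33). Prss34, named because it was not called, was at 162, 161 and 173 against 160.04, 171 and 208, with overlap (log2 change -0.31, adjusted p = 0.0511, and called lower without BMDM replicate 1 at -0.36). Of the 17 listed genes 15 are in the table, and none of these was at 0 in all 3 CAR libraries. The part of such cells in the changes of other genes was not tested.

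**Figure D3:**
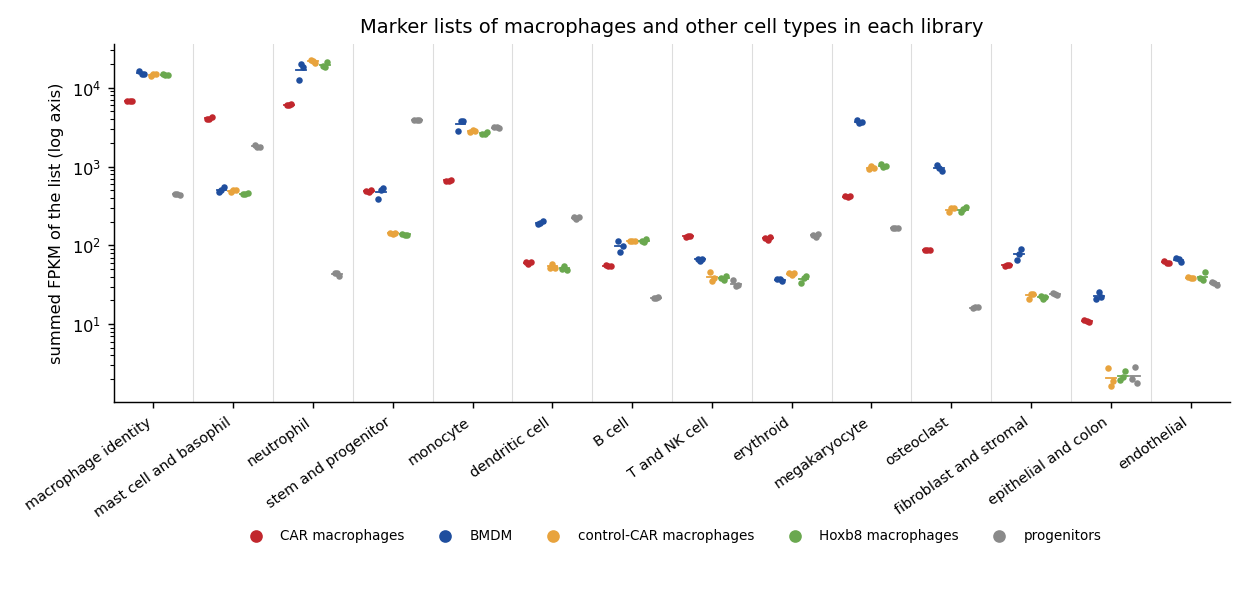
Summed FPKM of each marker list in each of the 15 libraries (log axis), with a bar at the mean of each group of 3. In CAR macrophages the mast cell and basophil sum is 4031 to 4273 and the macrophage sum 6686 to 6877. In BMDM the range of the neutrophil sum (12526 to 19886) spans that of the macrophage sum (14770 to 16228). Single abundant genes such as Cpa3 and Lcn2 weigh heavily in these sums, so they do not measure shares of cells.

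Genes of several other marrow cells were higher in BMDM. Neutrophil genes stood out by number: 19 of 20 tested fell in CAR macrophages and none rose, with a median log2 change of -4.01. Their summed level was 12526 to 19886 FPKM in BMDM and 5964 to 6181 in CAR macrophages, with 20686 to 22289 in control-CAR macrophages. In CAR macrophages a single gene outside the naming rule, the siderophore binder Lcn2, gave most of it at 5478, 5511 and 5648. Lcn2 was at 5136, 5742 and 5549 in BMDM, so the groups overlapped. Its log2 change of -0.18 (adjusted p = 0.0194) turned to 0.02 on log2(FPKM + 1) values, 0.10 on TPM and 0.68 on quantile-normalised values, and it passed the test neither without CAR replicate 1 or 2 nor without BMDM replicate 2. Ltf, the lactoferrin of secondary granules, was at 78.4, 124 and 115 FPKM in BMDM and at 0.55, 0.4 and 0.67 in CAR macrophages (log2 change -7.78, SE 0.19, adjusted p = 3.1e-15). BMDM replicate 1 had the lowest Ltf and the lowest neutrophil sum of the 3, and without it 19 of 20 neutrophil genes still fell. Itgb2l, an integrin chain of neutrophils, stood at 6.81, 11.7 and 12.3 against 0, 0.07 and 0.02. Csf3r, the receptor for granulocyte colony-stimulating factor, fell from 76.6, 84.5 and 84.95 to 5.19, 4.76 and 5.67 (log2 change -4.17, SE 0.06, adjusted p = 3.9e-19). The platelet basic protein gene Ppbp and platelet factor gene Pf4, which monocytes and megakaryocytes both use, were at 170.3, 151 and 175 against 0.36, 0.56 and 0.35 and at 3628, 3326 and 3453 against 313, 301 and 309.

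B cell genes were detected in BMDM and, apart from Blnk, nearly absent from CAR macrophages. They were not particular to BMDM. Their summed level was 81.6 to 112 FPKM in BMDM, 113 to 114 in control-CAR macrophages and 109 to 121 in Hoxb8 macrophages. Of 7 tested, 6 fell and none rose, and the median log2 change was -7.42, or -6.43 with genes that had no CAR count set at their bound. The adaptor Blnk, which other blood cells use too and which is named for its share, was at 53.6, 51.8 and 52.5 FPKM and made up most of the CAR sum of 54.5 to 55.7, against 52.1, 47.8 and 49.6 for Blnk in BMDM, with overlap. Cd79b, a signalling chain of the B cell receptor, was at 18.7, 11.7 and 16.6 FPKM in BMDM with no count in CAR macrophages, at least 86.3-fold lower. The progenitor receptor Flt3 was also near 0 in CAR macrophages and higher in BMDM, at 3.1, 1.97 and 2.6 against 0, 0 and 0.02 (486 counts against 1, a ratio of 466 with a 95% counting interval of 83.2 to 18438). Elane, the neutrophil elastase made by granulocyte and monocyte progenitors, was at 47.7, 90.8 and 93.6 against 0.27, 0.53 and 0.45. Stem and progenitor genes as a list went both ways, with 8 higher and 10 lower of 20, and 9 and 7 when libraries were scaled to their totals. Cd34, a sialomucin of stem and endothelial cells that mast cells also carry, rose from 9.43, 9.85 and 8.65 to 39.8, 38.7 and 43.8 (log2 change 1.95, SE 0.08, adjusted p = 1.39e-13). Hmga2, an oncofetal chromatin protein, rose from 0.47, 0.44 and 0.41 to 46.3, 47.1 and 48.5 (log2 change 6.56, SE 0.10, adjusted p = 3.9e-19).

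Lists of the remaining cell types were small. Of 11 monocyte genes tested, 4 rose and 7 fell. Ly6c2, the surface marker of inflammatory monocytes, fell from 915, 1109.7 and 1104 FPKM to 24.5, 23.4 and 26.04 (log2 change -5.60, SE 0.10, adjusted p = 2.1e-18). Dendritic cell genes fell in 7 of 8 and osteoclast genes in 6 of 7. Among the latter, Acp5, the tartrate-resistant acid phosphatase, fell from 329.9, 388 and 383 to 9.51, 9.52 and 8.17 (log2 change -5.55, SE 0.11, adjusted p = 8.98e-18). Of 4 tested T and NK cell genes 2 rose and 2 fell, with 1 rise without CAR replicate 2 or 3 or BMDM replicate 2 or 3. The T cell receptor genes Cd3e and Cd3g were at 0 in CAR macrophages and too low over all groups to be tested. The cytotoxic protease Gzmb, which mast cells can also make, rose from 1.51, 1.25 and 1.41 to 51.1, 52.5 and 55.5 (log2 change 5.06, SE 0.11, adjusted p = 5e-13). Stromal genes split: Col1a2, a chain of type I collagen, was at 24.6, 23.9 and 23.1 against 1.5, 1.08 and 1.16 and Sparc at 15.9, 16.8 and 16.4 against 1.93, 1.53 and 1.27, while Thy1 was at 0.67, 0.49 and 0.69 against 36.1, 52.3 and 62.3. The other chain of that collagen did not follow: Col1a1, named after its values were seen, was at 1.43, 1.41 and 1.67 in CAR macrophages and at 2.74, 2.02 and 2 in BMDM. Of the 8 fibroblast and stromal genes tested, 2 rose and 5 fell. Epithelial genes were low and went both ways, 2 higher and 2 lower of 5. The adhesion molecule Epcam was at 0.03, 0 and 0.03 against 1.07, 1.4 and 1.12, 2 counts against 120 and a ratio of 57.5 in favour of BMDM (95% counting interval 15.6 to 480). Krt20, a keratin of the intestine, was at 5.51, 5.45 and 5.42 against no count in BMDM, at least 55.9-fold higher. Of 4 erythroid genes 3 rose and none fell, of 9 megakaryocyte genes 3 rose and 5 fell, and of 4 endothelial genes 1 rose and 3 fell. Which cells these transcripts came from was not tested.

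The interferon-inducible GTPases rose in every tested member. They are cytosolic enzymes of the guanylate-binding (Gbp) and immunity-related (Irg) families that coat and break pathogen vacuoles, and interferons induce them through STAT factors at GAS motifs and, with IRF factors, at ISRE motifs. Because all 16 tested members moved together, the 250 bases before the RefSeq start of 3 of them, and of the interferon response factor gene Irf1, are shown from RefSeq sequence of GRCm38.p6, 5′ to 3′ on the strand of the gene. Capitals mark GAS matches (TTCNNNGAA) and ISRE matches (GAAA, any 2 bases, then GAAA, also searched as its reverse complement), and the 4 windows overlap no annotated exon.
Igtp, chr11:58199306-58199555, plus strand: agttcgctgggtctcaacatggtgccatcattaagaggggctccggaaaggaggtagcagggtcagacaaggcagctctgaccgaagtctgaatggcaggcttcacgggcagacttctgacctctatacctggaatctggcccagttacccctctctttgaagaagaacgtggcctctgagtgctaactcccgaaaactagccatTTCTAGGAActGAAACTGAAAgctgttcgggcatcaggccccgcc
Irgm2, chr11:58214727-58214976, plus strand: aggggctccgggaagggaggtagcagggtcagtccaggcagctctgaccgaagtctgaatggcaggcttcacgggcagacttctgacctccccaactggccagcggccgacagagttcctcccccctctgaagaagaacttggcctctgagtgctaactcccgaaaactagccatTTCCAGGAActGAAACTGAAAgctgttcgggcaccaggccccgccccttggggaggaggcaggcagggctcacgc
Tgtp2, chr11:49064213-49064462, minus strand: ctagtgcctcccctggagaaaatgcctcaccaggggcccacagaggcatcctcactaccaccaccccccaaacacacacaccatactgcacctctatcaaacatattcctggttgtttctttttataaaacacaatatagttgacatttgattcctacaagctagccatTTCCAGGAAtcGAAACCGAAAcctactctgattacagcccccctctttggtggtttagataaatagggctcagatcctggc
Irf1, chr11:53769764-53770013, plus strand: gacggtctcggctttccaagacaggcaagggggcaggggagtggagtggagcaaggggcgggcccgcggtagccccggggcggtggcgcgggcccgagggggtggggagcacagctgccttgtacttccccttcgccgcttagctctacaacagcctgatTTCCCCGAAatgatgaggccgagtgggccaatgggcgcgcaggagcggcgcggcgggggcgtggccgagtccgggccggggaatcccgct
In the windows of Igtp, Irgm2 and Tgtp2 a GAS match was followed by an ISRE match after 2 bases, and the GAS match ended 37 to 73 bases before the start. The Irf1 window held 1 GAS match and no ISRE match. Searched on both strands, the ISRE letters were found in the windows of 9 of 10 GTPase genes that have one (90%) and of 936 of 27025 RefSeq genes (3.46%). GAS letters were found in 6 of the 10 (60%) and in 2197 of the 27025 (8.13%). The letters of the 2 motifs did not overlap in the windows shown. For the 18 interferon-stimulated genes with a window the numbers were 8 (44.4%) and 4 (22.2%), for 17 MHC class I and peptide loading genes 3 (17.6%) and 2 (11.8%), and for 11 MHC class II genes 1 and 1. A match describes the letters in the window and not a bound site.

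All 16 tested GTPases rose, beside 39.2% of all tested genes, with a median log2 change of 4.26. None overlapped between the groups, but neither did 80.1% of all tested genes. Igtp was at 240.2, 236 and 236 FPKM in CAR macrophages and at 10.8, 10.4 and 9.65 in BMDM (log2 change 4.34, SE 0.09, adjusted p = 8.88e-18). Irgm2 was at 78.5, 81.2 and 80.6 against 8.82, 9.55 and 8.46 (log2 change 2.98, SE 0.08, adjusted p = 2.17e-16). Igtp and Irgm2 are named for their windows and not by the size of their change. The 4 largest rises were in Iigp1, Tgtp2, Tgtp1 and Gbp4. Iigp1 was at 45.8, 42.9 and 44.9 against 0.08, 0.15 and 0.15 (log2 change 8.26, SE 0.14, adjusted p = 3.29e-17), and was near 0 in BMDM. Tgtp2 was at 215, 213 and 214 against 1.2, 1.15 and 1.64 (log2 change 7.15, SE 0.09, adjusted p = 5.59e-20), with reads that its neighbour Tgtp1 can share. Gbp4 was at 42.8, 45.4 and 43.1 against 0.67, 0.57 and 0.84 (log2 change 5.82, SE 0.10, adjusted p = 1.9e-17). In control-CAR macrophages the means were 0 FPKM for Iigp1, 0.733 for Tgtp2 and 0.513 for Gbp4, and CAR exceeded control-CAR macrophages for each (largest adjusted p 2.02e-17). Irf1 itself rose from 25.4, 28.9 and 29.3 FPKM to 368, 362 and 375 (log2 change 3.54, SE 0.07, adjusted p = 1.48e-17).

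Other interferon-stimulated genes rose less and less uniformly. Of 23 tested, 16 rose and 4 fell, with a median log2 change of 0.87. Rsad2, the antiviral enzyme viperin, rose from 9.66, 13.3 and 12.1 FPKM to 90.9, 88.03 and 84.02 (log2 change 2.73, SE 0.10, adjusted p = 5.79e-14). Cmpk2 next to it, a mitochondrial nucleotide kinase, was at 21.3, 21.6 and 21.2 against 3.99, 3.38 and 3.38, and Zbp1, a sensor of left-handed nucleic acid, at 177, 171 and 174 against 32.8, 31.4 and 27.4. The 4 that fell, named here because they are few, were Oas1a, Oas2, Oas3 and Ddx58, enzymes and a sensor for viral double-stranded RNA, with log2 changes of -1.51, -1.57, -0.63 and -0.56. The interferon genes themselves were too low to be tested. Ifnb1 was at 0.85, 1.06 and 1.2 FPKM in CAR macrophages and at 0, 0.12 and 0 in BMDM, and Ifng at 0, 0.06 and 0.06 against 0.63, 0.65 and 0.4; both were chosen after their values were seen.

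MHC class I genes and their loading machinery rose, and MHC class II genes fell. For class I, 16 of 20 tested rose and 4 fell, with a median log2 change of 1.06. Nlrc5, the transactivator of class I genes, rose from 3.96, 3.8 and 3.84 FPKM to 27.9, 27.9 and 27.3 (log2 change 2.66, SE 0.07, adjusted p = 3.34e-16). Psmb10, a catalytic subunit of the immunoproteasome, rose from 36.5, 34.7 and 34.4 to 199, 195 and 205 (log2 change 2.31, SE 0.09, adjusted p = 3.78e-14). The peptide transporter Tap1 rose from 52.6, 62.9 and 62.9 to 235, 238 and 239.6, and Tapbpl, a peptide editor, from 16.1, 16.5 and 16.4 to 116, 118 and 123, both without overlap. The 4 that fell, named because they are few, were H2-Q7 and H2-Q6 (log2 changes -1.62 and -0.84), whose reads can be split between near-identical copies, and Pdia3 and H2-M3 (log2 changes -0.20 and -0.18), which turned to 0.07 and 0.08 on TPM. The count of falls was 2 without CAR replicate 1, without CAR replicate 2, without BMDM replicate 2 or with libraries scaled to their totals. For class II, 12 of 15 tested fell and 1 rose, with a median log2 change of -1.73. H2-Aa, the alpha chain of I-A, fell from 161, 176 and 174 FPKM to 4.45, 4.84 and 4.62 (log2 change -5.39, SE 0.13, adjusted p = 1.72e-16). H2-Eb1, the beta chain of I-E, fell from 84.3, 86.8 and 85.9 to 2.52, 2.83 and 3.17 (log2 change -5.10, SE 0.10, adjusted p = 1.16e-16). Ciita, the transactivator of class II genes, was at 0.19, 0.2 and 0.2 in CAR macrophages and at 4.19, 4.23 and 3.78 in BMDM (log2 change -4.48, SE 0.18, adjusted p = 1.32e-13). The invariant chain Cd74 was better kept, at 304, 306 and 313 against 857, 901 and 870.5 (log2 change -1.73, SE 0.07, adjusted p = 1.53e-13). B cells and dendritic cells also carry class II, and their marker lists were lower in CAR macrophages as given above; their part in these falls was not tested. In control-CAR macrophages H2-Aa averaged 0.113 FPKM and H2-Eb1 0.04, below CAR macrophages, whereas Cd74 averaged 1002.

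**Figure D4:**
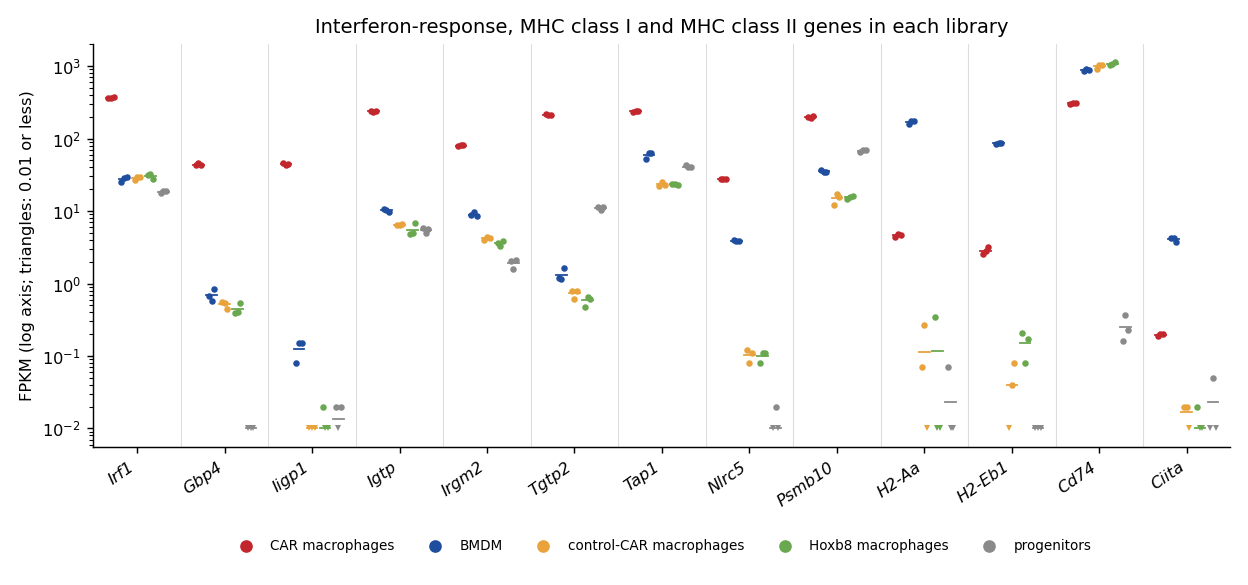
FPKM of interferon-response and MHC genes in each of the 15 libraries (log axis; triangles mark 0.01 or less), with a bar at the mean of each group of 3. From Irf1 to Psmb10 the 3 CAR libraries lie above all other libraries, and from H2-Aa to Ciita they lie below BMDM.

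Inflammatory cytokines and enzymes were abundant in both groups. Of 20 genes tested, 14 fell and 5 rose, with a median log2 change of -0.49. Il1b was abundant in both groups, at 2916, 2826 and 3029 FPKM in CAR macrophages and at 5009, 4933 and 5028 in BMDM (log2 change -0.96, SE 0.06, adjusted p = 1.73e-10). Tnf was at 184, 194 and 194 against 219.7, 238 and 222 (log2 change -0.43, SE 0.13, adjusted p = 0.00623). Il6 was at 286, 301 and 305 against 243, 331 and 409.6 (log2 change -0.33, SE 0.13, adjusted p = 0.0247). For Il6 the groups overlapped, since BMDM replicate 1 lay below the CAR libraries, and without CAR replicate 1, BMDM replicate 2 or BMDM replicate 3 the change no longer passed the test (log2 change -0.15 without BMDM replicate 3). Neither Tnf nor Il6 passed it with libraries scaled to their totals (log2 changes -0.26 and -0.16). Nos2, the inducible nitric oxide synthase that competes with Arg1 for arginine, rose from 630.2, 693 and 597 to 1447, 1449 and 1435 (log2 change 0.99, SE 0.09, adjusted p = 6.61e-08). With Arg1 at the levels given above, the ratio of Nos2 to Arg1 FPKM means was 300.2 in CAR macrophages and 0.3942 in BMDM. Lif, a cytokine of the interleukin 6 family, rose from 6.04, 6.77 and 6.1 to 40.4, 39.9 and 38.6 (log2 change 2.47, SE 0.10, adjusted p = 9.44e-14). Il18, a partner of interleukin 12 in raising interferon gamma, fell from 6.72, 6.73 and 5.88 to 2.19, 2.75 and 2.57 (log2 change -1.62, SE 0.16, adjusted p = 2.55e-08).

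Genes of alternative activation, the state that interleukins 4 and 13 evoke, mostly fell. Of 18 tested, 14 fell and 4 rose, with a median log2 change of -1.49, and without CAR replicate 3 the rises numbered 2. Besides Arg1, Mgl2, a galactose-binding lectin, was at 0, 0.32 and 0.09 FPKM against 15.8, 20.5 and 15.5 in BMDM. Chil3, a secreted chitinase-like protein, fell from 488, 733 and 737 to 151, 152 and 157 (log2 change -2.27, SE 0.14, adjusted p = 2.32e-10). Igf1, a growth factor of repair macrophages, was at 0.1, 0.04 and 0.06 against 3.85, 4.16 and 5.22. Retnla had no count in CAR macrophages and 2.64, 1.64 and 3.96 FPKM in BMDM, which makes it at least 3.93-fold lower. The 4 rises included Il10, an inhibitory cytokine named after its values were seen, at 18.8, 19.2 and 17.4 against 3.74, 2.31 and 2.32 (log2 change 2.53, SE 0.15, adjusted p = 2.33e-10).

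Chemokines changed in both directions. Of 12 CC chemokines 5 rose and 7 fell, and of 8 CXC chemokines 2 rose and 6 fell. Ccl5, which attracts T cells and monocytes, was the most abundant CC chemokine and rose from 1768, 2387 and 2756 FPKM to 7189, 7636 and 7722 (log2 change 1.48, SE 0.13, adjusted p = 8.63e-09). Ccl8, a monocyte attractant, fell from 7.04, 7.8 and 7.56 to 1.9, 1.35 and 2.5 (log2 change -2.18, SE 0.31, adjusted p = 8.99e-06). The neutrophil attractants Cxcl1 and Cxcl5 fell: Cxcl1 was at 97.03, 93.4 and 102 against 573, 534 and 531, and Cxcl5 at 0.59, 1.02 and 0.74 against 29.2, 24.96 and 27.2. Control-CAR macrophages were listed at 0 for Cxcl1, below CAR macrophages. Among 11 chemokine receptors 6 rose and 5 fell. Ackr3, a scavenging receptor for Cxcl12, rose from 0.51, 0.43 and 0.24 to 15.7, 14.99 and 16.6 (log2 change 5.13, SE 0.23, adjusted p = 5.43e-13).

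Receptors and adaptors by which macrophages bind and engulf targets were mostly lower in CAR macrophages. Of 18 genes of Fc receptors and their ITAM signalling, 15 fell and 1, the mast cell gene Fcer1a, rose, with a median log2 change of -0.97. Fcgr1, the high-affinity IgG receptor CD64, fell from 30.7, 24.3 and 24.9 FPKM to 3.42, 3.09 and 2.94 (log2 change -3.27, SE 0.13, adjusted p = 1.01e-13). The Src-family kinase Fgr was at 0.72, 0.63 and 0.88 against 39.8, 44.7 and 43.05 (log2 change -6.06, SE 0.11, adjusted p = 2.45e-18). The adaptor chain and kinase that these receptors share were nearer to BMDM. Fcer1g, the common gamma chain, was at 1661, 1679 and 1785 against 2018, 1986 and 2060.2 (log2 change -0.46), and Syk at 180.4, 181 and 183 against 243, 241 and 219 (log2 change -0.54), both called and both named after their values were seen. Of 16 scavenger and lectin receptors 12 fell and 4 rose, with a median of -2.28. Clec12a, an inhibitory lectin for uric acid crystals, fell from 75.1, 79.1 and 84.1 to 3.92, 4.01 and 4.4 (log2 change -4.49, SE 0.08, adjusted p = 9.04e-19), and Cd36, a receptor for oxidised lipids, from 7.33, 5.68 and 6.98 to 1.13, 1.46 and 1.41 (log2 change -2.51, SE 0.15, adjusted p = 2.36e-10).

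The TAM receptors, which bind dying cells through bridging proteins, moved in opposite directions. Axl, which interferon and inflammation induce, was at 76.5, 77.7 and 80.3 FPKM in CAR macrophages and at 3.13, 3.35 and 3.1 in BMDM (log2 change 4.39, SE 0.07, adjusted p = 8.88e-18). Mertk, the TAM receptor of resting macrophages, was at 0.41, 0.51 and 0.35 against 4.66, 3.8 and 3.98 (log2 change -3.47, SE 0.15, adjusted p = 4.24e-12). Tyro3 rose with Axl, from 0.46, 0.49 and 0.54 to 3.49, 3.78 and 3.32 (log2 change 2.65, SE 0.15, adjusted p = 1.23e-11). Axl was listed at 0 in control-CAR macrophages. Mfge8, which bridges phosphatidylserine to integrins, fell from 137, 120.3 and 122 to 35.6, 33.99 and 34.9 (log2 change -2.08, SE 0.08, adjusted p = 9.63e-14). Over the 16 tested genes for uptake of dying cells, 5 rose and 9 fell, and 6 and 7 on TPM.

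Complement genes fell in 13 of 15, and those of the first component were near 0 in CAR macrophages. C1qb was at 0.28, 0.61 and 0.34 FPKM against 79.8, 53.3 and 56.1 in BMDM (log2 change -7.41, SE 0.25, adjusted p = 1.57e-13). C1qa had 1 count over the 3 CAR libraries and 865 over BMDM, a ratio of 829 with a 95% counting interval of 148 to 32788. C1qc followed, at 0.23, 0.36 and 0.37 against 65.7, 42.1 and 44.3. Of 15 Toll-like receptor genes 9 fell and 1 rose, or 2 without BMDM replicate 1, and on TPM 7 fell and 3 rose. The endosomal RNA sensor Tlr8 was at 0.43, 0.39 and 0.26 against 8.02, 7.4 and 7 (log2 change -4.51, SE 0.15, adjusted p = 8.04e-14), and Unc93b1, which escorts such receptors to endosomes, fell from 276, 242 and 242 to 89.05, 92.1 and 90.6 (log2 change -1.68, SE 0.08, adjusted p = 1.19e-12). Ly96, the partner of Tlr4 for endotoxin, rose from 9.61, 11.6 and 16.3 to 27.7, 32.5 and 33.5 (log2 change 1.09, SE 0.16, adjusted p = 7.69e-06). Lysosomal genes fell in 20 of 30 and rose in 7, with a median of -0.37 (13 and 9 on TPM, with a median of -0.11). The largest fall among them was in Lgmn, an asparagine-specific protease, from 177, 158 and 149.9 to 12.9, 12.4 and 13.2 (log2 change -3.84, SE 0.09, adjusted p = 1.53e-16), followed by the cathepsins Ctsh, at 71.2, 67.4 and 68.4 against 257, 249.8 and 249, and Ctsc, at 84.2, 81.5 and 89.01 against 232, 281 and 305.

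The macrophage growth factor Csf1 and its receptor changed in opposite directions. Csf1, the ligand of Csf1r, rose from 33.1, 30.8 and 28.9 FPKM to 264, 268 and 272 (log2 change 2.79, SE 0.07, adjusted p = 3.34e-16), while Csf1r fell as given above. Il34, the other ligand of that receptor, was at 6.33, 6.23 and 6.93 in CAR macrophages and at 0.04, 0 and 0.04 in BMDM, where only 2 counts were found against 509, a ratio of 265 with a 95% counting interval of 73.1 to 2198. Csf2, the granulocyte and macrophage factor, was low in both, at 6.86, 8.48 and 8.61 against 3.84, 2.08 and 2.31 (log2 change 1.35, SE 0.28, adjusted p = 0.000326). Of all 12 colony-stimulating factors and receptors tested, 6 rose and 5 fell. In control-CAR macrophages Csf1 averaged 219 FPKM and Il34 0.0567. Other secreted growth factors rose in 8 and fell in 5 of 13. Bmp2 rose from 0.48, 0.31 and 0.3 to 4.35, 3.82 and 3.65 (log2 change 3.24, SE 0.19, adjusted p = 8.78e-09), and Gdf15, a stress-induced factor, fell from 11.4, 13.8 and 18.2 to 0.84, 0.56 and 0.71 (log2 change -4.62, SE 0.21, adjusted p = 5.1e-13).

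Proteases that cut extracellular matrix mostly fell, and their inhibitors went different ways. Of 17 tested, 12 fell and 1 rose, with a median log2 change of -1.25. The count of rises was 3 without BMDM replicate 1 and 4 with libraries scaled to their totals. Mmp13, a collagenase, fell from 467, 252 and 253 FPKM to 4.96, 4.35 and 4.81 (log2 change -6.30, SE 0.28, adjusted p = 4.95e-13). Mmp14, a membrane-bound collagenase, fell from 456, 435 and 402 to 16.04, 16.1 and 16.1 (log2 change -4.92, SE 0.08, adjusted p = 3.29e-17). Mmp12, the elastase of macrophages, was at 166, 165 and 172 against 2099, 1523 and 1507 (log2 change -3.55, SE 0.16, adjusted p = 7.42e-13). Timp1, an inhibitor of these enzymes, rose from 7.52, 6.41 and 7.36 to 155, 157 and 158 (log2 change 4.26, SE 0.11, adjusted p = 3.1e-16). The related inhibitors Timp3 and Timp2, named after their values were seen, had log2 changes of -1.25 (adjusted p = 2.58e-05) and 0.01 (adjusted p = 0.859). Control-CAR macrophages did not share the fall of every member: Mmp13 averaged 328 FPKM there and Mmp12 1258, but Mmp14 0.903. Integrins and adhesion genes split, with 6 higher and 9 lower of 18, and 8 and 9 on TPM. Itgb7, an integrin chain by which lymphocytes and mast cell progenitors home to the gut, rose from 21.8, 23.2 and 23.4 to 146, 145 and 147 (log2 change 2.50, SE 0.06, adjusted p = 1.9e-16).

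Genes of DNA replication were higher in CAR macrophages, and those of mitosis rose more often than they fell. For S phase, 19 of 20 rose and none fell, with a median log2 change of 0.87. Rrm2, a subunit of the enzyme that makes deoxynucleotides, rose from 19.3, 20.3 and 23.7 FPKM to 63.8, 62.5 and 65.8 (log2 change 1.42, SE 0.07, adjusted p = 5.06e-12). Mcm2, part of the replicative helicase, rose from 10.8, 11.2 and 10.8 to 31.6, 30.9 and 32.2 (log2 change 1.35, SE 0.07, adjusted p = 3.59e-12). Control-CAR macrophages lay below every BMDM library, with means of 0.463 for Rrm2 and 1.90 for Mcm2. For G2 and M phase, 12 of 20 rose and 4 fell, with a median log2 change of 0.46. The summed level of that list was 508 to 525 FPKM in CAR libraries and 316 to 395 in BMDM. Cenpf, a kinetochore protein, rose from 1.18, 1.43 and 2.29 to 6.02, 6.1 and 5.71 (log2 change 1.68, SE 0.14, adjusted p = 4.87e-09), whereas Mki67, the marker of cycling cells, fell from 27.6, 34.6 and 42.2 to 23.8, 24.03 and 23.5 (log2 change -0.74, SE 0.12, adjusted p = 1.31e-05). Cell cycle brakes and D cyclins rose in 7 and fell in 5 of 13. Ccnd1, cyclin D1, was at 47.8, 46.1 and 49.4 in CAR macrophages and at 1, 1.36 and 1.03 in BMDM (log2 change 5.22, SE 0.12, adjusted p = 5.57e-17). Cdkn2a, whose products p16 and p19 restrain the cycle, also rose, from 1.49, 1.77 and 2.7 to 100.1, 104 and 106 (log2 change 5.44, SE 0.11, adjusted p = 8.88e-18), and its control-CAR mean was 77.1.

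Genes for making ribosomes rose together: 18 of 18 tested were higher, none was lower, and the median log2 change was 1.99. Rrp12, a factor of small subunit export, rose from 2.23, 1.64 and 1.71 FPKM to 12.5, 12.8 and 13.1 (log2 change 2.60, SE 0.10, adjusted p = 9.18e-14). Dkc1, the enzyme that makes pseudouridine in ribosomal RNA, rose from 2.95, 3.23 and 3.01 to 24.4, 22.3 and 21.3 (log2 change 2.57, SE 0.09, adjusted p = 2.14e-14). Nolc1, a nucleolar phosphoprotein, rose from 8.15, 7.15 and 6.52 to 40.1, 42.3 and 40.4 (log2 change 2.31, SE 0.08, adjusted p = 1.39e-14). All 3 were also higher than their control-CAR means of 2.58, 1.16 and 4.85 FPKM (largest adjusted p 1.45e-12).

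Metabolic genes were lower in CAR macrophages for glycolysis and for sterol synthesis. Glycolysis and hypoxia genes fell in 20 of 25 and rose in 1, or in none without CAR replicate 1 or BMDM replicate 1, with a median log2 change of -0.57. Pfkfb3, which raises the activator of phosphofructokinase, fell from 72.7, 67.5 and 60.8 FPKM to 17.1, 16.5 and 15.6 (log2 change -2.23, SE 0.07, adjusted p = 4.58e-15). Egln3, an oxygen-sensing hydroxylase, fell from 222, 270.04 and 238 to 66.4, 66.3 and 68.99 (log2 change -2.04, SE 0.07, adjusted p = 1.69e-14), and the vasodilator peptide Adm from 7.89, 8.99 and 7.78 to 0.31, 0.3 and 0.3. Sterol genes fell in 17 of 19 and rose in 1, with a median of -0.92. Scd2, a fatty acid desaturase, fell from 248, 249.7 and 218 to 36, 35.4 and 36.7 (log2 change -2.91, SE 0.10, adjusted p = 7.2e-15), and Mvd, an enzyme of the mevalonate pathway, from 56.5, 73.3 and 63.97 to 15, 15.2 and 16.8 (log2 change -2.23, SE 0.14, adjusted p = 7.08e-11). Genes of lipid-associated macrophages fell in 12 of 18. The fatty acid binder Fabp5 fell from 271, 313 and 307 to 35.9, 34.8 and 36.3 (log2 change -3.25, SE 0.09, adjusted p = 6.81e-16) and Trem2, a lipid receptor, from 150.3, 146 and 156 to 126, 131 and 129 (log2 change -0.42, SE 0.07, adjusted p = 4.37e-05). Gpnmb, a glycoprotein of the same programme, did not pass the test, at 1466, 1446 and 1524 against 1183, 1150.0 and 1122 (log2 change 0.18, SE 0.09, adjusted p = 0.0648), but did so with libraries scaled to their totals (log2 change 0.36) and without BMDM replicate 1 (0.22). CAR macrophages and BMDM both stood far above control-CAR macrophages for Gpnmb, whose mean there was 26.5 FPKM.

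**Figure D5:**
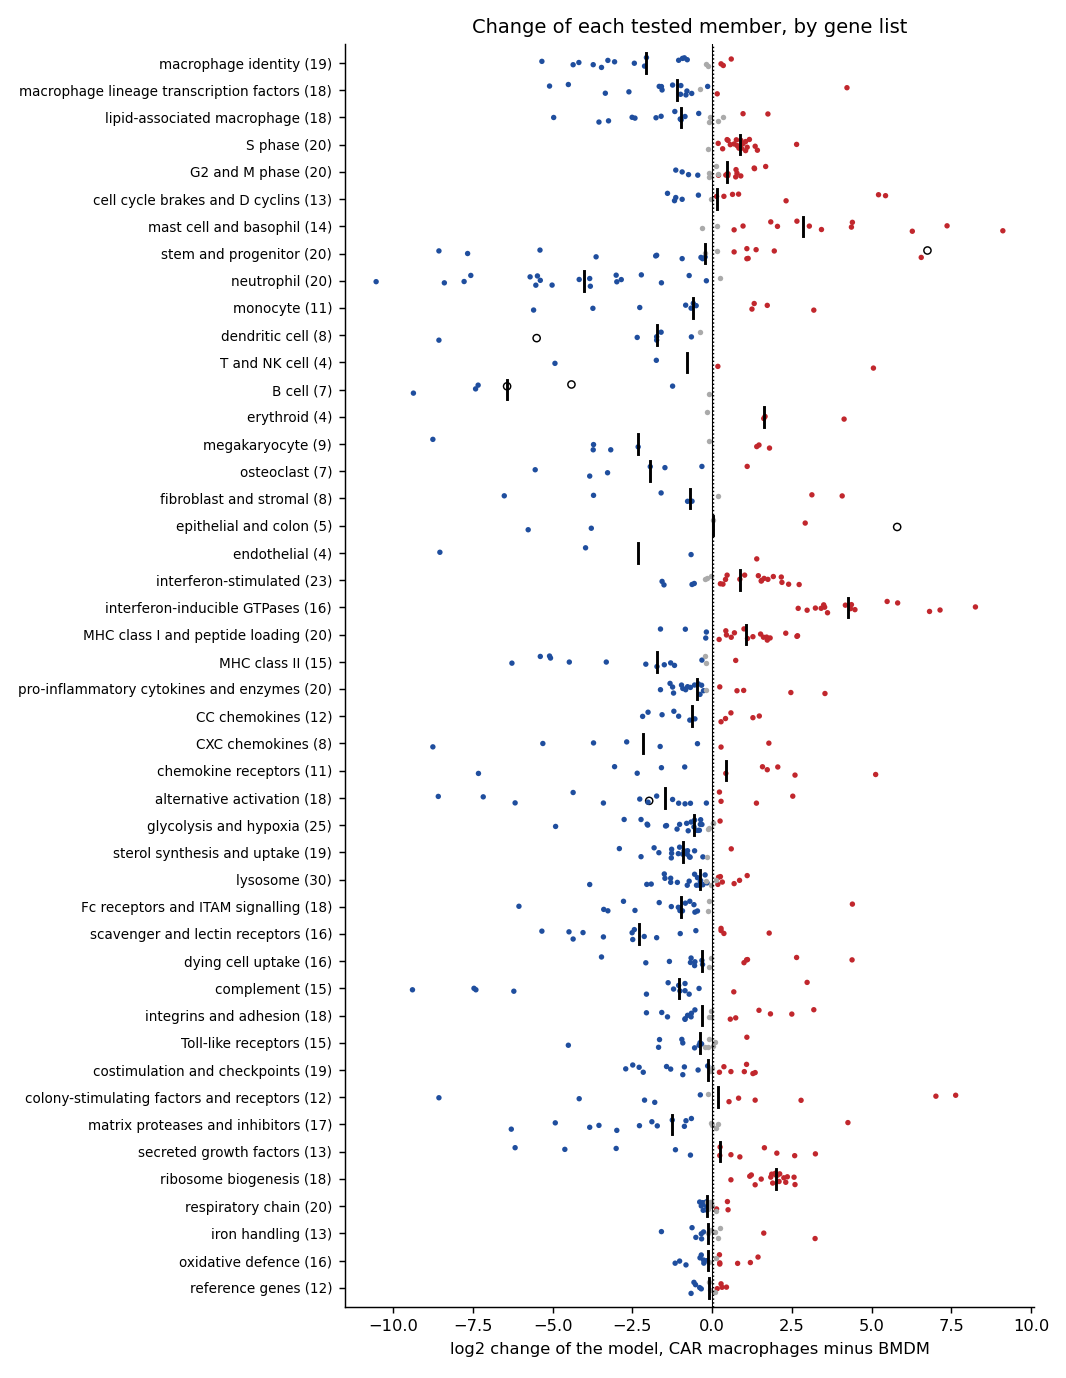
The log2 change (CAR macrophages minus BMDM) of every tested member of each gene list, with the number tested in brackets, a bar at the median of the list and a dotted line at the median of all tested genes (0.02). Red and blue points are called higher and lower, grey points are not called, and open circles are genes with no count in one group, drawn at their bound; the GTPases and ribosome biogenesis lie wholly to the right and neutrophil genes almost wholly to the left.

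Several lists had medians close to that of all genes, and their direction followed the scaling. Respiratory chain genes rose in 3 and fell in 10 of 20, but rose in 7 and fell in 2 with libraries scaled to their totals. Iron handling genes were 2 higher and 6 lower of 13, and without BMDM replicate 1 the rises numbered 4. Hamp, the gene of the iron hormone hepcidin, was at 1661, 1673 and 1731 FPKM in CAR macrophages and at 141, 153 and 159 in BMDM (log2 change 3.23, SE 0.18, adjusted p = 7.03e-11). The transferrin receptor Tfrc rose from 9.09, 9.93 and 9.8 to 33.5, 33.1 and 33.6 (log2 change 1.62, SE 0.07, adjusted p = 1.31e-13). Genes of oxidative defence were 6 higher and 8 lower of 16, and genes commonly used as references 4 and 5 of 12. Scaled to library totals, these splits were 6 and 4 for iron, 7 and 5 for oxidative defence, and 5 and 5 for reference genes. Gapdh was at 4361, 4581 and 4675 against 6100.3, 5973 and 5607 (log2 change -0.57, SE 0.07, adjusted p = 8.74e-07), and on quantile-normalised values its change was 0.03.

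Costimulatory and checkpoint genes, by which a macrophage instructs T cells, split into 7 higher and 10 lower of 19, with a median log2 change of -0.14. Scaled to library totals the split was 8 and 9 with a median of 0.04, and with DESeq2 it was 5 and 10. Cd86, a ligand of CD28, fell from 34.4, 29.2 and 30.97 FPKM to 7.74, 6.64 and 7.6 (log2 change -2.29, SE 0.10, adjusted p = 2.96e-13). The inhibitory receptor Siglece fell from 168, 173 and 179 to 31.4, 29.5 and 29.3 (log2 change -2.71, SE 0.07, adjusted p = 2.36e-16), and the checkpoint ligand Vsir from 83.4, 99.97 and 91.7 to 22.9, 23.9 and 22.7 (log2 change -2.16, SE 0.07, adjusted p = 6.06e-15). Cd274, the PD-L1 gene and a known interferon target, named after its values were seen, rose from 228, 267 and 254 to 732, 708 and 729.6 (log2 change 1.35, SE 0.07, adjusted p = 1.82e-12). The CD40 gene Cd40, named in the same way, rose from 14.5, 11.7 and 15.1 to 30.1, 31.8 and 33.3 (log2 change 1.01, SE 0.10, adjusted p = 5.66e-08). Against control-CAR macrophages, Cd86 and Cd40 were both higher in CAR macrophages, with control-CAR means of 0.163 and 0.697 FPKM (largest adjusted p 9.05e-14), so the difference of Cd86 from BMDM and from control-CAR macrophages ran in opposite directions.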

How the data were processed

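Polyadenylated RNA of cells lysed in TRIzol was made into libraries and sequenced on DNA nanoballs, per the labels' protocols. The deposited table holds, per gene and library, the authors' estimated counts (94.4% to 96.0% of them whole numbers), FPKM and TPM. HISAT2, Bowtie2, RSEM 1.3.1, DESeq2 1.4.5 and GRCm38.p6 are listed in the submitters' processing notes without their roles, and neither these nor the labels state the annotation, filters or use of strand. Of the 17030 genes, 16978 IDs matched RefSeq of GRCm38.p6, which restored 25 symbols that had been turned into dates. 15 columns of group averages were not used.

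Counts were rounded and fitted with edgeR 4.0.16 (R 4.3.3; TMM, quasi-likelihood test, two-sided) in 1 model of all 15 libraries with a mean per group, so that the spread was shared, and p-values were adjusted by Benjamini-Hochberg over the 11793 genes at 1 FPKM or more in at least 3 libraries. A shared spread does not allow for the larger spread of BMDM replicates (median SD of log2 CPM 0.121 against 0.058 in CAR macrophages). FPKM were used for levels only. A gene with no count in a group was given a floor of 3 counts per library, and ratios over 1 to 3 counts have a 95% interval, both for counting error only. Genes named in the text were the 12 largest rises and falls on the log2(FPKM + 1) scale (called, not overlapping, at least 10 FPKM in one group), up to 4 called members with the largest log2 change in each gene list, and a fixed set of macrophage genes; others are named as such, and some that the rule picks are not reported here. The members and lists were chosen with earlier results of these data known. Alternatives were DESeq2 1.42.0, other scalings, limma 3.58.1 on log2 FPKM and TPM, other filters and pseudocounts, a replicate block, and leaving out each library. In simulated counts of 11793 genes, CAR macrophages were given the BMDM means except for a few changed genes. The fit recovered 83.6% of 67 genes changed 1.5-fold and 97% of 67 changed 2-fold, with 10 false calls among 11593 unchanged genes. In the data 76.9% of genes were called, and the simulation gave each gene the same spread in all groups. It therefore cannot give the share of false calls in the real comparison. The CAR construct was not analysed here.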

Additional observations from a re-analysis of the deposited data

How the results depend on the processing

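The number of genes called between CAR macrophages and BMDM stayed within 1.5 times of 9073 under every alternative run, from 7627 with a filter at 5 FPKM to 10729 without a filter, and from 8607 to 8990 when 1 CAR or BMDM library was left out. Changing the filter also changed how many genes were tested, so the counts under other filters do not measure the share called. Genes higher numbered 4376 to 4581 and genes lower 4231 to 4409 when 1 library was left out. Against control-CAR macrophages 8906 to 9188 genes were called without 1 library. The replicate numbers did not pair the libraries: deviations of same-numbered CAR and BMDM libraries correlated at 0.004, 0.018 and -0.017, and with the number as a block 8975 genes were called (4563 higher, 4412 lower), and 9204 against control-CAR macrophages. The direction split moved with the scaling, as given in the report. Of 2794 recomputed log2 changes of 165 named genes, 2729 stayed on their side of the threshold and, where called, kept their direction, 34 in 6 genes lost the call, 20 in 5 genes gained it and 11 in 5 genes turned. The turned values were those of Lcn2 (0.02 on log2(FPKM + 1) and log2(FPKM + 0.1), 0.10 on TPM, 0.68 on quantile-normalised values), Pdia3 (0.07 on TPM, 0.08 on quantile-normalised values), H2-M3 (0.01 on both FPKM scales, 0.08 on TPM), Gapdh (0.03 on quantile-normalised values) and Blnk, which was not called (0.15 and called on TPM). The cause was not tested. With the block H2-M3 lost its call at -0.18, and the block changed no other call of a named gene. Depth limits the genes with 0 to 3 counts in a group, whose ratios are bounds or have counting intervals.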

Other observations

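Some genes outside the lists, chosen one by one after their values were seen, were far higher in CAR macrophages than in BMDM. They stand for no group: of the 8 fibroblast and stromal genes tested, 2 rose and 5 fell, with a median log2 change of -0.70. Serpinh1, the collagen chaperone of the endoplasmic reticulum, was at 79.6, 83.5 and 81.4 FPKM in CAR macrophages and at 1.14, 0.97 and 0.8 in BMDM (log2 change 6.22, SE 0.10, edgeR's quasi-likelihood test, adjusted p = 4.1e-14). Ankrd1, a target of mechanical and Hippo signalling, was at 30.9, 29.96 and 27.3 with no count in BMDM, at least 267-fold higher. Twist2, a factor of mesenchymal cells, was at 12.1, 14.3 and 11.3, at least 80.5-fold higher, and Msln, the mesothelial surface protein, at 12.2, 11.1 and 11.5, at least 131-fold higher, both without a BMDM count. Control-CAR means were 0 FPKM for Serpinh1, 0.0133 for Ankrd1, 0 for Twist2 and 0 for Msln. As given in the report, Col1a2 and Sparc were higher in CAR macrophages at 23.9 and 16.4 FPKM, whereas Col1a1 and Thy1 were lower.

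Others were chosen in the same way. Il13, a type 2 cytokine, was at 178, 184 and 189 FPKM against 17.7, 13.4 and 11.4 (log2 change 3.50, SE 0.23, adjusted p = 6.16e-10). Penk, the enkephalin precursor, was at 392, 394 and 405 against 30.7, 19.96 and 16.8 (log2 change 3.95, SE 0.16, adjusted p = 1.06e-12), and Tph1, the enzyme that starts serotonin synthesis, at 54.7, 50.7 and 52.9 against 0.34, 0.51 and 0.16. Among falls outside the lists, Saa3, an acute-phase protein of activated macrophages, went from 9539, 10759.8 and 11477 to 526, 522 and 549.9 (log2 change -4.50, SE 0.09, adjusted p = 1.27e-17). Aif1, a calcium-binding protein of macrophages, went from 15.9, 16.4 and 18.7 to 0.18, 0.26 and 0.53, and Cd200, a ligand that restrains myeloid cells, from 17.3, 18.9 and 17.2 to 0.43, 0.78 and 0.49. The CAR and BMDM libraries did not overlap for the 10 genes first named in these paragraphs, as for 80.1% of all tested genes. These genes were picked for large differences, so the lack of overlap is no further result.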
